A study of Mus musculus with 5 samples.

Results

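The constitutive 26S proteasome genes are the 31 genes for the standard subunits of the proteasome, taken from a list of symbols that left out the subunits induced by interferon. All 31 were matched by symbol to 1 Ensembl identifier each, among the 55573 genes of the count tables, and all 31 passed the filter on low counts. Their levels were compared between GL261-bearing mice treated with ultrasound-mediated blood-brain barrier opening (UMBO; 2 libraries) and with vehicle (3 libraries). GL261 is a mouse glioma line that forms brain tumors in immunocompetent C57BL/6 mice. In both groups the line carried luciferase and mKate2 and was grafted into the right caudate nucleus-putamen of C57BL/6 females aged 7 to 8 weeks, and mice below a bioluminescence minimum were left out. In the UMBO group low-intensity pulsed ultrasound was applied with intravenous microbubbles, and the vehicle group received antibody dilution buffer. Both groups had treatment sessions on days 21 and 24 and were sacrificed 24 h after the last one. The methods mention anesthesia in the treatment protocols of all mice, and whether the vehicle mice of this experiment received microbubbles is not given in the sources used here. Each library is RNA from the right hemisphere of 1 mouse, so a single grafted line, brain cells and infiltrating cells are mixed in it.

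The proteasome degrades proteins that have been tagged with ubiquitin. Its 20S core is a barrel of stacked rings in which alpha subunits form the gate and beta subunits the chamber, and 3 of the beta subunits cut peptide bonds. The 19S regulatory particle sits on the core. Its base holds ATPases that unfold the substrate, and its lid holds the enzyme that removes ubiquitin. Because every cell needs the complex, its genes are expressed in all the cell types of a brain tumor, and interferon exchanges the cutting subunits for induced ones.

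The 250 bases before the start site of Psmb5 and Psmb6, which encode cutting subunits, are shown from RefSeq (GRCm38.p6), 5′ to 3′ on the gene's strand. They were chosen because, among the 4 genes whose promoters hold TGACNNNGC, these 2 have the smallest p. TGACNNNGC is the core of the antioxidant response element, through which the factor Nfe2l1 is known to drive proteasome genes. Capitals mark this match.

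Psmb5 (chr14:54617996-54618245, reverse strand): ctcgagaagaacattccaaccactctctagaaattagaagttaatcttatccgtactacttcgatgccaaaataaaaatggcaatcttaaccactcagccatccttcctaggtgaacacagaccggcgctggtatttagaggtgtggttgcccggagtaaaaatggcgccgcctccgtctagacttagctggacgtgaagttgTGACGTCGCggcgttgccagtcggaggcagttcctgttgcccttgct
Psmb6 (chr11:70525107-70525356, forward strand): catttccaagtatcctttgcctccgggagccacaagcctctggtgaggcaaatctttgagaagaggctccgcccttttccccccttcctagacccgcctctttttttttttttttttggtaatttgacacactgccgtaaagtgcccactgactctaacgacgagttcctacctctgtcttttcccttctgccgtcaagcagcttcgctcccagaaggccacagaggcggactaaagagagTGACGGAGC

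The match began 47 bases before the start in Psmb5 and 9 bases before it in Psmb6. Promoter windows of 300 bases (250 before the start and 50 after it) were found for 25 of the 31 genes, and not for Psmb1, Psmb2, Psmb7, Psmc3, Psmd3 and Psmd7. These genes have 27 windows, since 2 of them have 2 start sites. TGACNNNGC, or its reverse complement GCNNNGTCA, was in 4 of the 27 windows (14.8%), those of Psmb5, Psmb6, Psmc6 and Psmd12, against 12.4% of the 32851 windows of all genes. CCAAT or its reverse complement ATTGG, the box bound by NF-Y, was in 10 of the 27 (37.0%) against 37.4% of all windows. The letters searched were therefore about as frequent in proteasome promoters as in promoters at large. The matches describe letters in these windows and not binding sites.

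The libraries held between 59736771 and 86164159 counts, and the lowest count of a proteasome gene in any library was 1928, so counting error was small beside the differences between mice. UMBO replicate 2 stood apart from the other libraries. Its summed level of 10 proliferation markers was 507 CPM (reads of a gene per mega-read of library size, with library sizes scaled by the TMM method) against 37.4 to 115 in the vehicle libraries and 116 in UMBO replicate 1. Its 5 monocyte and macrophage markers summed to 349 CPM, against 20.2 to 79.1 in the vehicle libraries and 74.9 in UMBO replicate 1. Neuronal markers (6 genes) summed to 2365 CPM in it against 4578 to 7281 with vehicle and 4815 in UMBO replicate 1, and astrocyte markers (5 genes) to 1431 against 2709 to 4103 and 3689. With UMBO 10 of 10 proliferation markers, 5 of 5 monocyte and macrophage markers and 1 of 6 neuronal markers had the higher mean. So had 5 of 5 T cell markers and 0 of 5 choroid plexus markers, where 50.9% of all genes tested had a positive log2 fold change. T cell markers summed to 5.03 CPM in UMBO replicate 1, inside the vehicle range of 3.20 to 12.3, and to 24.9 in UMBO replicate 2. Choroid plexus markers summed to 844.2 CPM in UMBO replicate 1, above the vehicle range of 796.5 to 825.9, and to 487.5 in UMBO replicate 2. In the proliferation, microglial, endothelial and red blood cell lists, and in no other marker list, both UMBO libraries summed higher than every vehicle library. For the proliferation markers UMBO replicate 1 did so narrowly, at 115.5 CPM against 114.9 in vehicle replicate 2. Of the 5 microglial markers, 4 had the higher mean with UMBO and 1 the lower. Among single genes tested, 11.5% were higher in each UMBO library than in any vehicle library. Microglial markers (5 genes) summed to 659 and 788 CPM with UMBO against 343 to 511, endothelial markers (5 genes) to 184 and 201 against 106 to 151, and red blood cell markers (5 genes) to 181 and 217 against 71.8 to 165. Of all the markers, none of the markers was at 0 in every library. In bulk tissue, fewer cells of a type and less RNA per cell cannot be told apart.

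No proteasome gene differed between the groups beyond the spread of the mice, although 30 of the 31 had higher values with UMBO on average. With edgeR's quasi-likelihood test 0 of the 31 passed an adjusted p of 0.05 (0% of the 23592 genes tested passed) and 0 had an unadjusted p under 0.05 (7.37% of all genes tested, 5.3% higher and 2.06% lower with UMBO). DESeq2 also called 0 of the 31, with 0.182% of all genes called, and 0 of the 31 had an unadjusted p under 0.05 (11.2% of all genes, 8.11% in the higher direction). The log2 fold changes had a median of 0.38 and lay between -0.060 and 0.85, beside a median of 0.012 over all genes tested, of which 50.9% had a positive value. The 95% intervals of all 31 genes included 0. For 15 genes the interval also reached above 1.

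The higher averages rested on UMBO replicate 2. In this library 30 of the 31 genes lay above every vehicle library, where 42.2% of all genes tested did so and 41.6% lay below every vehicle library. Relative to the vehicle mean its proteasome genes had a median log2 difference of 0.67, with single genes between -0.013 and 1.35. UMBO replicate 1 had a median of 0.013, and 28 of its 31 genes lay within the range of the vehicle libraries (63.4% of all genes), with Psmd6 above it and Psmc5 and Psmd1 below it (18.6% and 17.9% of all genes). Without UMBO replicate 2 the median log2 fold change was 0.0090, with 18 genes higher and 13 lower. Psmd6 was the 1 gene with both UMBO values above the vehicle range (11.5% of all genes tested), and 0 genes had both below it (11.4% of all genes tested).

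**Figure D1:**
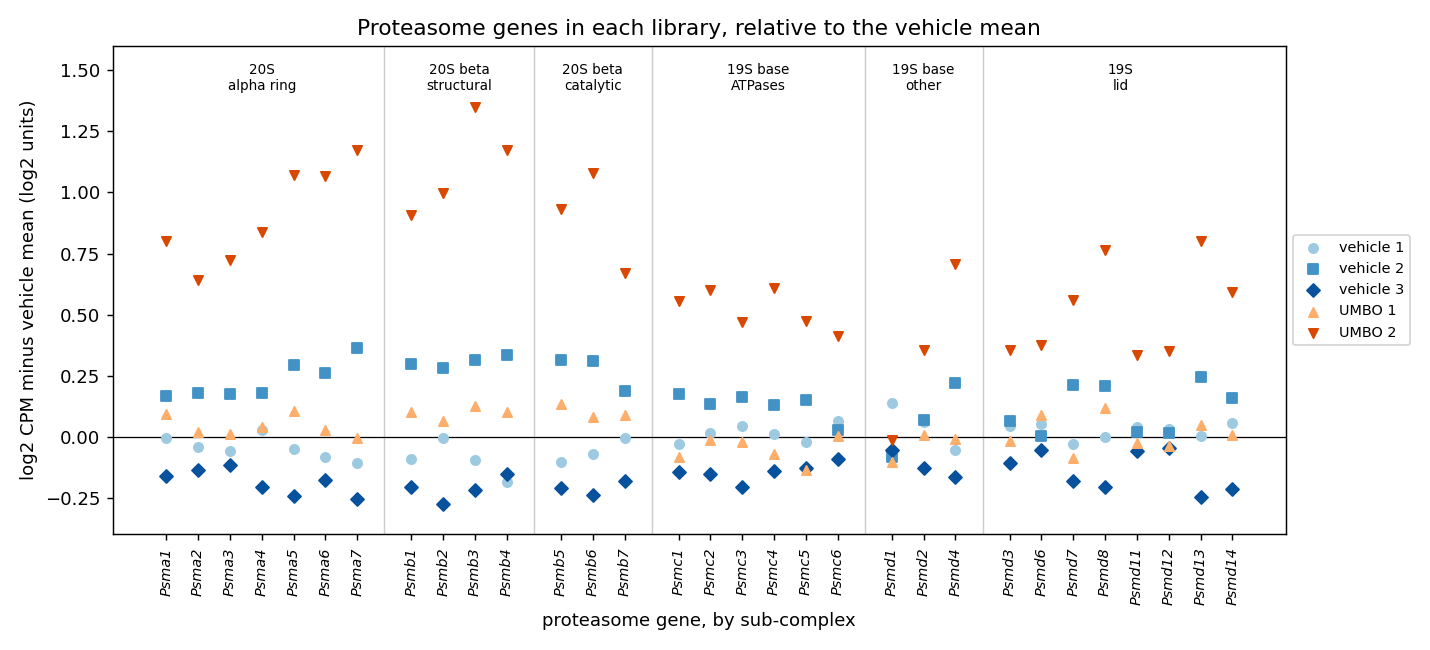
Log2 CPM of each proteasome gene minus its mean over the vehicle libraries (y axis, log2 units), by sub-complex, with 1 symbol for each of the 5 libraries. UMBO 2 lies highest in 30 of the 31 genes and UMBO 1 lies among the vehicle libraries in 28.

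The vehicle libraries were also ordered. The median log2 difference of the 31 genes from the vehicle mean was 0.18 in vehicle replicate 2, -0.0060 in vehicle replicate 1 and -0.17 in vehicle replicate 3, and vehicle replicate 3 held the lowest value for 28 genes. In 16 genes the order from low to high was vehicle replicate 3, vehicle replicate 1, UMBO replicate 1, vehicle replicate 2 and UMBO replicate 2, and in 8 more it was the same with vehicle replicate 1 and UMBO replicate 1 exchanged. The proliferation markers put the libraries in a like order, from 37.4 CPM in vehicle replicate 3 and 54.1 in vehicle replicate 1 to 115 in vehicle replicate 2, 116 in UMBO replicate 1 and 507 in UMBO replicate 2; their part in the proteasome levels was not tested. In vehicle replicate 3 all 31 genes lay below the vehicle mean and in vehicle replicate 2 and UMBO replicate 2 each 30 lay above it, while vehicle replicate 1 had 13 above and 18 below and UMBO replicate 1 had 19 above and 12 below. Across the 31 genes the SD of the log2 differences lay between 0.063 and 0.11 for each vehicle library, and was 0.072 for UMBO replicate 1 but 0.31 for UMBO replicate 2.

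The alpha ring (Psma1 to Psma7), which forms the gate of the core, had log2 fold changes between 0.36 and 0.68, with 7 of 7 positive. The largest was that of Psma7. With vehicle (replicates 1, 2, 3, the order used throughout) it was at 78.0, 108 and 70.5 CPM, and with UMBO (replicates 1, 2) at 83.7 and 190 CPM. Its log2 fold change was 0.68 (standard error 0.383; edgeR adjusted p 0.497). Psma5 was at 48.4, 61.3 and 42.3 CPM with vehicle and at 53.8 and 105 CPM with UMBO, a log2 fold change of 0.65 (standard error 0.322; edgeR adjusted p 0.497). In both genes UMBO replicate 1 lay between vehicle replicates and UMBO replicate 2 lay above all of them. The smallest fold change of the ring was that of Psma2, at 76.7, 89.5 and 72.0 CPM with vehicle and 80.2 and 123 CPM with UMBO.

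Among the structural beta subunits, which complete the chamber wall without cutting, Psmb3 had the largest log2 fold change and the smallest p of all 31 genes. Psmb3 (chromosome 11 of GRCm38, 97703399 to 97713500) was at 43.9, 58.3 and 40.4 CPM with vehicle and at 51.2 and 120 CPM with UMBO, for means of 47.5 ± 9.48 (SD, n = 3) and 85.5 ± 48.6 (SD, n = 2). Its log2 fold change was 0.85 (95% interval -0.07 to 1.77), with an unadjusted p of 0.0656 and an adjusted p of 0.497 in edgeR. The groups overlapped, since UMBO replicate 1 was below vehicle replicate 2. Psmb4 was at 79.5, 114 and 81.4 CPM with vehicle and at 96.8 and 204 CPM with UMBO, with a log2 fold change of 0.71 (standard error 0.355; edgeR adjusted p 0.497). Psmb1 and Psmb2 had log2 fold changes of 0.54 and 0.59 and the same overlap.

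The 3 constitutive cutting subunits showed the same order of libraries. Psmb5, the chymotrypsin-like subunit, was at 25.8, 34.4 and 23.9 CPM with vehicle and at 30.4 and 52.9 CPM with UMBO, a log2 fold change of 0.57 (standard error 0.292). Psmb6, the caspase-like subunit, was at 71.5, 93.3 and 63.6 CPM with vehicle and at 79.6 and 159 CPM with UMBO, a log2 fold change of 0.65 (standard error 0.335). Psmb7, the trypsin-like subunit, was at 105, 120 and 93.2 CPM with vehicle and at 112 and 168 CPM with UMBO, a log2 fold change of 0.40 (standard error 0.241). In each of them UMBO replicate 1 lay between vehicle replicates 1 and 2, and the adjusted p was 0.497 in edgeR. Psmb5 shares 12.1% of its exonic bases with a microRNA gene on the same strand, Psmb7 shares 11.8% with Nek6 on the opposite strand, and pseudogene copies of Psmb5 took counts equal to 3.83% of its own, the highest share of any of these genes.

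The 6 ATPases of the 19S base (Psmc1 to Psmc6), which thread substrates into the core, had log2 fold changes between 0.20 and 0.32. This was the group with the lowest median of UMBO replicate 1, at -0.046 on the log2 scale relative to the vehicle mean. Psmc5 was at 157, 177 and 146 CPM with vehicle and at 145 and 222 CPM with UMBO, so that UMBO replicate 1 lay just below all vehicle libraries. Psmc2, with the largest change of the ring, was at 92.5, 100 and 82.3 CPM with vehicle and at 90.4 and 138 CPM with UMBO.

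Psmd1 (chromosome 1, 86064387 to 86139151), the scaffold subunit Rpn2 of the base, was the single gene with a negative log2 fold change. It was at 135, 115 and 118 CPM with vehicle and at 114 and 121 CPM with UMBO, a log2 fold change of -0.060 (95% interval -0.49 to 0.37; edgeR adjusted p 0.863). It was also the single gene in which UMBO replicate 2 lay within the vehicle range. With scaling by library size only, its log2 fold change was 0.062. Psmd1 shares 4.14% of its exonic bases with a gene on the same strand and 3.47% with Htr2b on the opposite one. The other large scaffold, Psmd2 (Rpn1), had the highest CPM of the 31 genes, at 215, 216 and 189 CPM with vehicle and 207 and 264 CPM with UMBO. The ubiquitin receptor Psmd4 (Rpn10) was at 86.9, 105 and 80.5 CPM with vehicle and at 89.6 and 147 CPM with UMBO, a log2 fold change of 0.38.

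The lid genes had log2 fold changes between 0.16 and 0.47, with 8 of 8 positive. Psmd14, which encodes the deubiquitinase Rpn11, was at 78.6, 84.5 and 65.1 CPM with vehicle and at 75.9 and 114 CPM with UMBO, a log2 fold change of 0.32 (standard error 0.238; edgeR adjusted p 0.521). Its partner Psmd7 (Rpn8) was at 98.4, 116 and 88.6 CPM with vehicle and at 94.5 and 148 CPM with UMBO. In both, UMBO replicate 1 lay within the vehicle range. The scaffold subunits Psmd11 and Psmd12 varied little between vehicle libraries, at 80.5 to 86.3 CPM and 71.1 to 75.0 CPM with vehicle. With UMBO, Psmd11 was at 82.3 and 106 CPM and Psmd12 at 71.6 and 93.6 CPM, log2 fold changes of 0.16 and 0.17 (standard errors of 0.183 and 0.183; edgeR adjusted p of 0.633 and 0.622). Psmd6 was the 1 gene without overlap, at 61.9, 59.9 and 57.5 CPM with vehicle and at 63.7 and 77.5 CPM with UMBO, a log2 fold change of 0.24 (standard error 0.167; edgeR adjusted p 0.508). In UMBO replicate 1 it lay close above vehicle replicate 1. Psmd8 and Psmd13 had the largest fold changes of the lid, 0.47 and 0.46.

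**Figure D2:**
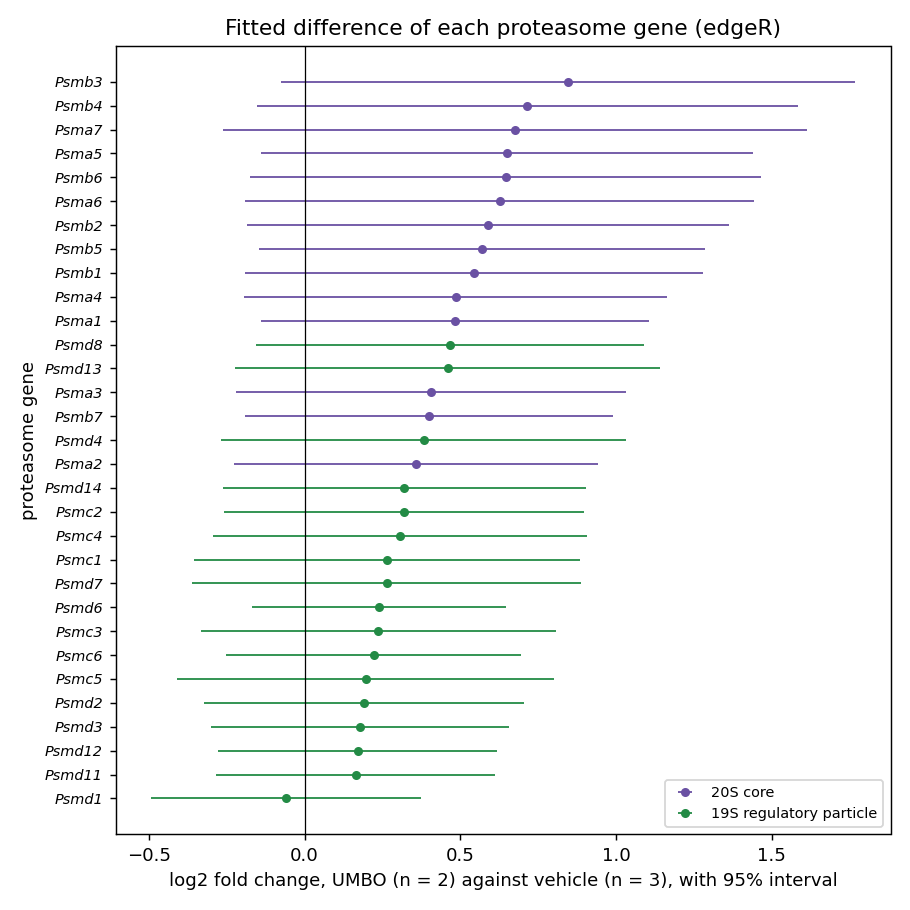
Log2 fold change of each proteasome gene (x axis, UMBO against vehicle, with the 95% interval of the edgeR fit), ordered by size and colored by sub-complex. All 31 intervals cross 0, and the 11 largest values belong to core genes.

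The core and the regulatory particle differed in how far their genes moved in UMBO replicate 2. This split follows the known structure and was drawn after the values had been seen, so it has no test. In UMBO replicate 2 the 14 core genes had a median log2 difference from the vehicle mean of 0.97 (range 0.64 to 1.35), and the 17 regulatory particle genes one of 0.48 (range -0.013 to 0.80). On a linear scale these medians are 1.95-fold and 1.39-fold. Of the 17 regulatory particle genes, 3 (Psmd4, Psmd8 and Psmd13) lay above the lowest core gene. Vehicle replicate 2 had the same direction, with medians of 0.29 for the core and 0.14 for the regulatory particle. Vehicle replicate 3 had medians of -0.21 and -0.14, vehicle replicate 1 of -0.066 and 0.031, and UMBO replicate 1 of 0.086 and -0.016. The core median thus lay farther from the vehicle mean than the regulatory particle median in all 5 libraries, but single genes overlapped. In vehicle replicate 1 the core genes ranged from -0.18 to 0.026 and the regulatory particle genes from -0.055 to 0.14. In vehicle replicate 3 these ranges were -0.28 to -0.12 and -0.25 to -0.045. In UMBO replicate 1 the gene farthest from the vehicle mean was Psmc5, of the regulatory particle. Over the groups the median log2 fold change was 0.58 for the core and 0.24 for the regulatory particle, and without UMBO replicate 2 it was 0.073 and -0.018.

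**Figure D3:**
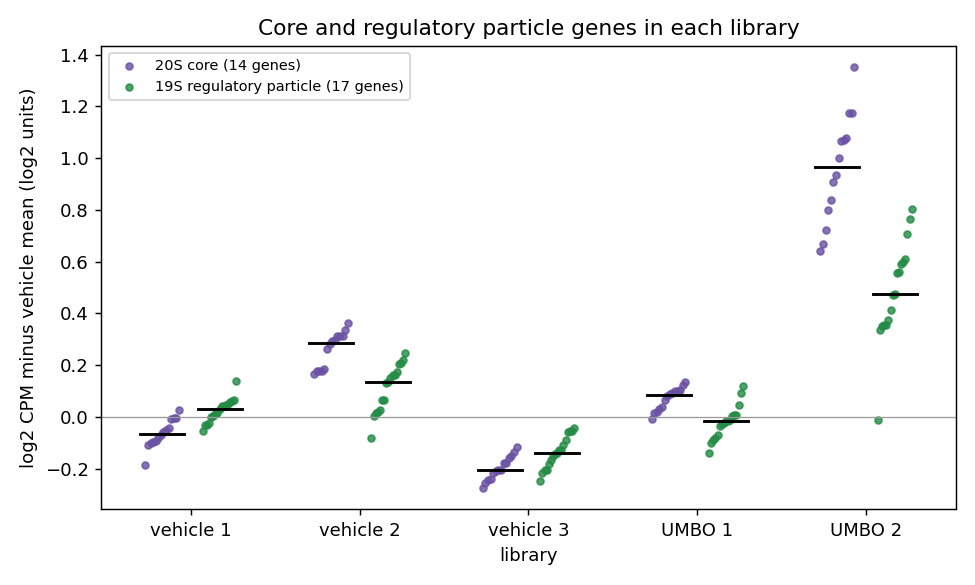
Log2 CPM minus the vehicle mean (y axis, log2 units) of the 14 core genes and 17 regulatory particle genes in each library, with the median as a bar. In UMBO 2 the medians are 0.97 and 0.48, and in UMBO 1 they are 0.086 and -0.016.

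Transcript length moved with this split. The principal transcript had a median length of 1162 bases in the core genes and 1636 in the regulatory particle genes. Over all protein-coding genes tested, the median log2 difference of UMBO replicate 2 from the vehicle mean was 0.74 for the 1614 genes with a principal transcript under 1200 bases. It was 0.35 for the 2979 genes from 1200 to 2000 bases and -0.25 for the 11813 longer ones. The 9 proteasome genes in the shortest class, all from the core, had a median of 1.07 in that library, against 0.60 for the 15 in the middle class and 0.36 for the 7 in the longest. Within the middle class the 3 core genes had a median of 0.91 and the 12 regulatory particle genes one of 0.58. In the longest class the 2 core genes had a median of 0.68 and the 5 regulatory particle genes one of 0.35. Vehicle replicate 2 had the same trend over all protein-coding genes, with medians of 0.25, 0.13 and -0.076 from the shortest to the longest class. UMBO replicate 1 had it too, at 0.11, 0.061 and -0.011. The trend was reversed in vehicle replicate 1 (-0.14, -0.064 and 0.044) and vehicle replicate 3 (-0.13, -0.075 and 0.028). The part of transcript length in the core values was not tested. The share of counts on mitochondrial genes was 3.36% in UMBO replicate 2 and 5.29% to 6.61% in the other libraries.

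**Figure D4:**
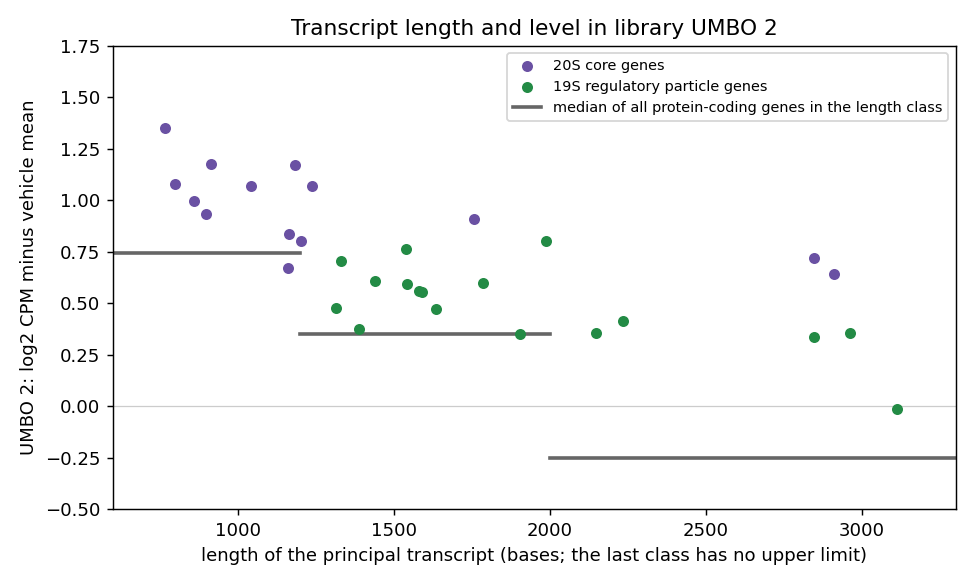
Length of the principal transcript (x axis, bases) and log2 CPM in UMBO 2 minus the vehicle mean (y axis) for the 31 proteasome genes, with the median of all protein-coding genes in each length class as a line. The class medians fall from 0.74 to -0.25, and 9 of the 14 core genes are in the shortest class.

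Levels between genes can be compared only per length. As CPM per kilobase of all annotated exons, Psmc5 was highest with vehicle, at 115, and Psmd11 lowest, at 13.1, an 8.74-fold range. With the length of the principal transcript, a choice made after seeing the data, the range was 4.46-fold. Psmc5 was again highest, at 122 ± 11.9 (SD, n = 3), and Psma2 lowest, at 27.3 ± 3.12 (SD, n = 3). The order depends on the length used. With the mean length of the annotated transcripts Psmc1 was highest, at 186 ± 21.1 (SD, n = 3), Psmc2 lowest, at 34.9 ± 3.46 (SD, n = 3), and Psmc5 was at 118 ± 11.6 (SD, n = 3). The values that follow use the length of the principal transcript. Behind Psmc5, the vehicle means of Psmb6 (95.4 ± 19.2), Psmc1 (94.3 ± 10.7), Psma7 (93.6 ± 21.9) and Psmb7 (91.5 ± 11.6) differed by less than their SDs. Psmb5, at 31.2 ± 6.22, was the lowest of the 3 cutting subunits on this scale.

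Interferon replaces Psmb5, Psmb6 and Psmb7 by Psmb8, Psmb9 and Psmb10, and the ratio within each pair compares the induced with the constitutive subunit in the same library. In counts per kilobase of all annotated exons, Psmb8 stood to Psmb5 as 0.142, 0.634 and 0.178 with vehicle (replicates 1 to 3) and as 0.288 and 1.14 with UMBO. The size of each ratio depends on the gene lengths used, so it does not measure the balance of the 2 subunits. The log2 differences between libraries do not depend on length. On the log2 scale the UMBO mean was 1.18 above the vehicle mean, against SDs of 1.16 (n = 3) and 1.40 (n = 2), with an exact 2-sided permutation p of 0.4. The ratio of Psmb9 to Psmb6 was 0.0413, 0.21 and 0.0661 with vehicle and 0.094 and 0.302 with UMBO, a log2 difference of 1.02 (exact permutation p of 0.4). The ratio of Psmb10 to Psmb7 was 0.501, 1.00 and 0.555 with vehicle and 0.581 and 1.44 with UMBO, a log2 difference of 0.49 (exact permutation p of 0.5). Adjusted over the 3 ratios the exact permutation p was 0.5 for each, and 0.1 is the smallest p that 10 groupings of the libraries allow. In all 3 pairs vehicle replicate 2 lay above UMBO replicate 1, so the groups overlapped. The libraries with the highest ratios, UMBO replicate 2 and vehicle replicate 2, also had the highest sums of the 5 monocyte and macrophage markers, 349 and 79.1 CPM; the part of these cells in the ratios was not tested. Of their exonic bases, Psmb8 shares 14.7% with Gm20496 and Psmb9 5.79% with Tap1, both antisense to them.

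**Figure D5:**
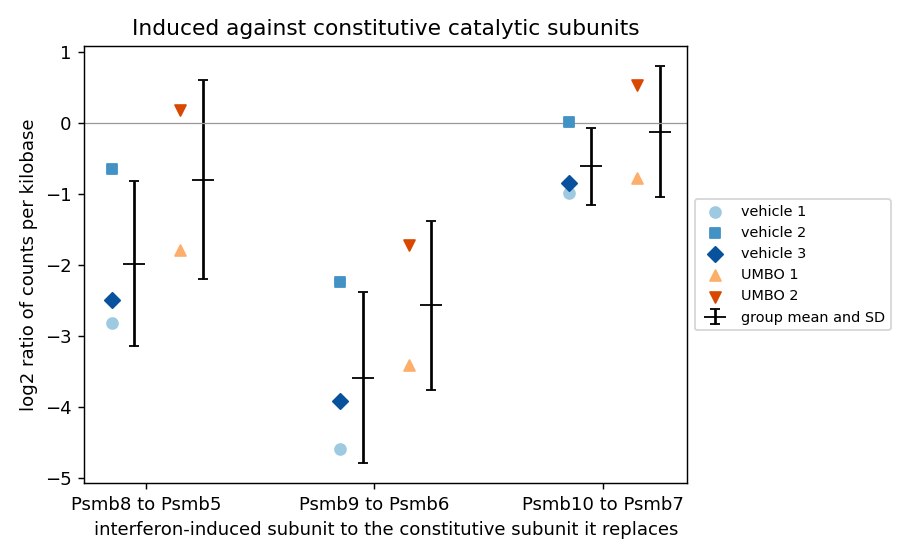
Log2 ratio of counts per kilobase of each interferon-induced cutting subunit to the constitutive one it replaces (y axis), by library, with group means and SDs as black bars (n = 3 vehicle, n = 2 UMBO). UMBO 2 is highest and vehicle 2 second in each pair.

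The induced subunits and the activator varied more between libraries than the constitutive genes. Psmb8 was at 13.8, 82.0 and 16.0 CPM with vehicle and at 32.9 and 226 CPM with UMBO, a log2 fold change of 1.80 (standard error 1.04; edgeR adjusted p 0.497). Without UMBO replicate 2 it was -0.18. Psmb9 and Psmb10 had log2 fold changes of 1.63 and 1.04, and -0.25 and -0.20 without that library. Psme1 and Psme2, which form the interferon-induced cap PA28, had ranges of 36.5 to 93.0 CPM and 21.4 to 65.9 CPM with vehicle, and with UMBO Psme1 was at 57.3 and 225 CPM and Psme2 at 38.6 and 185 CPM. These 5 genes were highest in UMBO replicate 2 and next highest in vehicle replicate 2, which is also the order of the median of the constitutive genes.

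Of 50 other genes of the pathway, 49 were matched and tested, and Paaf1 was not analysed here. In edgeR 0 of the 49 passed the adjusted threshold (0% of all genes tested). An unadjusted p under 0.05 was reached by 1 of them, against 7.37% of all genes tested. On average 29 were higher and 20 lower with UMBO, where 50.9% of all genes tested had a positive log2 fold change. All 5 interferon-induced or tissue-specific subunits were higher on average (median log2 difference 1.19), and Psmb11 and Psma8 stayed at or below 1.39 CPM. Among 5 activators and inhibitors, 2 were higher and 3 lower (median -0.037). Among 8 assembly factors, 7 were higher and 1 lower (median 0.45). Pomp, which matures the core, was at 81.7, 104 and 77.9 CPM with vehicle and at 87.4 and 160 CPM with UMBO, a log2 fold change of 0.49. The core chaperone Psmg4 was at 3.41, 7.43 and 3.41 CPM with vehicle and at 4.91 and 18.9 CPM with UMBO, a log2 fold change of 1.32 that was 0.049 without UMBO replicate 2. Its partner Psmg3 was at 3.38, 4.85 and 3.22 CPM with vehicle and at 3.76 and 9.39 CPM with UMBO, a log2 fold change of 0.78 that was -0.023 without that library.

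Among 6 other subunits and associated enzymes, 2 were higher and 4 lower. The 2 higher ones are subunits of the particle itself. The ubiquitin receptor Adrm1 was at 50.3, 53.3 and 43.9 CPM with vehicle and at 50.3 and 73.9 CPM with UMBO, and the small lid subunit Sem1 at 31.5, 43.5 and 30.4 CPM with vehicle and at 36.2 and 79.9 CPM with UMBO. The deubiquitinase Usp14, which binds the particle, was lowest in UMBO replicate 2, at 94.6 CPM against 125 to 169 CPM with vehicle. Its log2 fold change was -0.32 (standard error 0.251; edgeR adjusted p 0.532), and it shares 2169 exonic bases with Thoc1 on the opposite strand. The ligase Ube3c and the adaptor Ecpas were likewise lowest there, at 64.7 and 91.8 CPM. The deubiquitinase Uchl5 was not, at 42.1, 39.1 and 35.0 CPM with vehicle and at 33.6 and 42.3 CPM with UMBO, a log2 fold change of -0.028.

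The shuttles and p97 genes (9) had a median log2 fold change of -0.046, with 4 higher and 5 lower. Ubqln4 lay lower in both UMBO libraries, at 107 and 101 CPM, than in all vehicle libraries, at 124 to 139 CPM, with a log2 fold change of -0.32 (standard error 0.173; edgeR adjusted p 0.497). The related shuttle Ubqln2 was at 234, 187 and 215 CPM with vehicle and at 215 and 112 CPM with UMBO, with UMBO replicate 1 inside the vehicle range. Of 6 ubiquitin and E1 genes 4 were higher. Rps27a, which encodes ubiquitin fused to a ribosomal protein, was at 149, 256 and 149 CPM with vehicle and at 198 and 677 CPM with UMBO (log2 fold change 1.24; edgeR adjusted p 0.497), with UMBO replicate 1 inside the vehicle range. Ubiquitin genes carry near-identical repeats, and Rps27a shares exonic bases with Clhc1 on the opposite strand, so its counts are uncertain.

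Transcription control genes (10) were divided, with 5 higher and 5 lower. Nfe2l1, which drives proteasome genes when the proteasome is impaired, was at 395, 346 and 345 CPM with vehicle and at 333 and 296 CPM with UMBO. Both UMBO libraries lay below all vehicle libraries, with a log2 fold change of -0.20 (standard error 0.209; edgeR adjusted p 0.61). Nfe2l2, the oxidative stress factor of the same family, was at 20.2, 31.1 and 24.0 CPM with vehicle and at 30.1 and 51.5 CPM with UMBO, a log2 fold change of 0.70 (standard error 0.297; edgeR adjusted p 0.497). Ddi2, the protease that activates Nfe2l1, was at 72.1, 52.4 and 65.6 CPM with vehicle and at 56.8 and 39.8 CPM with UMBO. The small partner Maff was the 1 gene with an unadjusted p under 0.05, at 0.0425, with an edgeR adjusted p of 0.497. It was at 0.816, 3.41 and 1.15 CPM with vehicle and at 2.36 and 16.4 CPM with UMBO, so UMBO replicate 1 lay below vehicle replicate 2.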

How the data were processed

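The data are RNA-seq of 5 right hemispheres (3 vehicle, 2 UMBO), fewer than the mice in the study's methods; a further library was not analysed here. Reads were mapped by the authors with STAR 2.7.2a to GRCm38, and the deposited values are raw counts per gene. Which annotation release was counted, and whether strand was used, is not given in the sources used here. Labels gave the groups and replicate numbers. Nothing says how the mice were housed or processed together, so p-values measure the spread between these libraries.

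Symbols, positions and exonic lengths came from GENCODE M21 (55480 of 55573 genes matched), on the same build. After TMM scaling and filterByExpr, edgeR 4.0.16 in R 4.3.3 fitted its quasi-likelihood model to 23592 genes, with p adjusted by Benjamini-Hochberg over all of them (threshold 0.05). The fit was tested on simulated data. Intervals and standard errors were derived from the F statistic, and log2 CPM used a prior count of 2. Subunit ratios had exact permutation tests over the 10 groupings of the libraries. Depth was 59736771 to 86164159 counts per library. DESeq2 1.42.0, other scalings, no filter, the replicate block and leaving out each library were alternatives. Pseudogene copies were searched with BLAST (90% identity over 200 bases) and found for 13 of the 31 genes, and 8 share exonic bases with another gene. Promoters are from RefSeq (GRCm38.p6).

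The members, the pathway and marker lists and the rule for named genes were chosen with earlier results of these data known. The rule allows all members, gives full statistics for the 3 smallest p, the 3 largest and the 3 smallest fold changes and the cutting subunits, and in the pathway names a fixed set of subunits and regulators plus the 2 smallest p of each other list. Usp14, Uchl5, Ecpas, Ube3c, Psmb11 and Psma8 were picked after their values were seen, as were the length classes. 1 gene that the rule names is not reported here. Protein sequences were not used here.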

Additional observations from a re-analysis of the deposited data

How the results depend on the processing

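Over the 31 genes, the median absolute log2 difference between the 2 UMBO libraries was 0.65, against a median log2 fold change of 0.38. Leaving out single libraries moved the members' median to between 0.0090 (without UMBO replicate 2) and 0.63 (without UMBO replicate 1). The number of members past the adjusted threshold ranged from 0 to 10, that with an unadjusted p under 0.05 from 0 to 20, and that of all genes called from 0 to 4543. Each maximum was without UMBO replicate 1, in a fit of 24814 genes where the lone UMBO library is assumed to vary like the vehicle libraries. The members past the adjusted threshold there are all core genes. They rest on UMBO replicate 2, the library in which the core split was seen, so they are no separate evidence for it. In that fit 21.4% of all genes were higher and 19.6% lower at an unadjusted p under 0.05. Without UMBO replicate 2 the log2 fold change turned negative for 12 genes, with these leave-one-out ranges: Psma7 -0.031 to 1.12, Psmc1 -0.086 to 0.52, Psmc2 -0.018 to 0.57, Psmc3 -0.029 to 0.43, Psmc4 -0.073 to 0.58, Psmc5 -0.14 to 0.44, Psmd4 -0.018 to 0.67, Psmd3 -0.016 to 0.32, Psmd7 -0.095 to 0.52, Psmd11 -0.026 to 0.31, Psmd12 -0.035 to 0.32 and Psmd14 -0.00068 to 0.56. That of Psmd1 turned positive with library size only (0.062) and without vehicle replicate 1 (range -0.10 to 0.012). The log2 ratio difference of Psmb10 to Psmb7 had a range of -0.17 to 1.14 and was negative without UMBO replicate 2.

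Without a filter on low counts 3 members had an unadjusted p under 0.05, all higher (7.31% of all genes were higher at that p), and DESeq2 called 42 genes, 0 of them members; the cause was not tested. With library size only, the median of all genes became 0.13 and that of the members 0.51. The range of levels per length was 5.33-fold with mean transcript length and 4.46-fold with the principal transcript. The 23 members that share no exonic bases had a median of 0.36.

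With the replicate number as a block, edgeR called 2337 genes and 0 of the 31 members (smallest adjusted p 0.0795), and 4 members had an unadjusted p under 0.05, all higher, where 14.4% of all genes were higher and 11.6% lower. The labels do not tie the numbers to litters or days. Same-numbered libraries had deviations correlated at 0.453 and 0.76, over 2 shared numbers. With 2 pairs and no label behind them the numbers were not treated as pairs, and whether same-numbered libraries share a factor was not tested.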
